A study of Homo sapiens with 4 samples.

Results

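The kinesin superfamily was taken as every gene whose symbol in the platform annotation was KIF followed by a digit, or KIFC1, KIFC2 or KIFC3, and 42 genes with 105 probe sets met this rule. Of these, 41 were motor genes with 101 single-gene probe sets, among 18132 genes and 44988 single-gene probe sets on the array, and the remaining one, KIF25-AS1, is an antisense RNA (difference -0.17, not called). Dim probe sets, with a mean log2 intensity below 2.86 (the lowest 30%), were kept out of the gene comparison, which kept 38 of the 41 motor genes among 14266 genes tested. KIF2B, KIF25 and KIF27 had only probe sets below that level.

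RNA came from SCC-15, an established line from a human squamous cell carcinoma of the tongue, hybridised to 1-colour Affymetrix arrays. Cells received a microRNA mimic (2 arrays) or the negative control oligonucleotide miR-NC (2 arrays), both at 30 nM by transfection 24 h after seeding, and were collected 36 h later. The series title and design text call the mimic miR-762, whereas the labels of its samples say miR-585-5p, so the group is called mimic here. Nothing said whether replicates were separate cultures, and p-values then reflect only how far these arrays differed, which may be technical. No array detection call was used, and the number of arrays limits the precision.

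Both possible mimics are shown because the labels do not settle which was used. These are the mature sequences in RefSeq (GRCh38.p14), with the seed, bases 2 to 8, in capitals; the 2 seeds differ, so the name decides which target sites would apply.
hsa-miR-762, chr16:30893951-30893972, plus strand: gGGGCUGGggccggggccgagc
hsa-miR-585-5p, chr5:169263649-169263670, minus strand: cUAGCACAcagauacgcccaga

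Kinesins are motors that hydrolyse ATP to move along microtubules or to take microtubule ends apart. One set of them builds and positions the mitotic spindle, moves chromosomes and completes cytokinesis, and the messenger RNAs of many of these genes peak in G2 and mitosis. Others carry vesicles, organelles and ciliary cargo in cells that need not divide. The genes were therefore read in 3 classes by their known role, namely division, transport, and a class of ciliary, microtubule-end and other functions.

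Promoters of most division kinesins held short motifs that were absent from most of the transport kinesins with a promoter entry. The sequences below run from 150 bases before to 50 bases after the annotated start (RefSeq, GRCh38.p14). Capitals mark TTTGAA, the core of the cell cycle genes homology region (CHR) bound by the MuvB complexes that control G2 and mitosis genes, its variant TTCGAA, or CCAAT, the NF-Y box, each on either strand (so TTCAAA and ATTGG are the reverse complements). Shown are 7 division kinesins with CCAAT up to 50 bases upstream of TTTGAA, and KIF20A with CCAAT alone. The last is KIF5B, a transport kinesin that holds both in the reverse order.
KIF14, chr1:200620702-200620901, minus strand: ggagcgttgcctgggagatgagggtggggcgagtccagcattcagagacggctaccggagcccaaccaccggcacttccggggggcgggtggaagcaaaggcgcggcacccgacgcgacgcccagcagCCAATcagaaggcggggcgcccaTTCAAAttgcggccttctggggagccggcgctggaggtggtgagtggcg
KIF11, chr10:92592980-92593179, plus strand: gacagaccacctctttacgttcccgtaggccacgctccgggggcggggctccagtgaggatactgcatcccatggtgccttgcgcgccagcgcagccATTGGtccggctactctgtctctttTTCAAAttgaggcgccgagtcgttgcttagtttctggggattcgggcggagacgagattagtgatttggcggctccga
KIF23, chr15:69414199-69414398, plus strand: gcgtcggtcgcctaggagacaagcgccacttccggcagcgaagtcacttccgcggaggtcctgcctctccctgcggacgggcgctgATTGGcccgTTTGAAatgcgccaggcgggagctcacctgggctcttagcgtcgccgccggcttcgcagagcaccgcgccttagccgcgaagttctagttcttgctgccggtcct
KIF18A, chr11:28108107-28108306, minus strand: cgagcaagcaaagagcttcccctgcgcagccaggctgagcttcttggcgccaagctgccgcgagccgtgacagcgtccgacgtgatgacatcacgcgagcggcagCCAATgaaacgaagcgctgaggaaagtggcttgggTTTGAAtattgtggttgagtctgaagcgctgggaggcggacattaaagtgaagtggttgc
KIF4A, chrX:70289954-70290153, plus strand: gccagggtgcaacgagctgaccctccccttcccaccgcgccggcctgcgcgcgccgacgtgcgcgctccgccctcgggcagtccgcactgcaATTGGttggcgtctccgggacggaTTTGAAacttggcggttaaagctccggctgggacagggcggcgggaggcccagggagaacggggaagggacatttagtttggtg
KIFC1, chr6:33391673-33391872, plus strand: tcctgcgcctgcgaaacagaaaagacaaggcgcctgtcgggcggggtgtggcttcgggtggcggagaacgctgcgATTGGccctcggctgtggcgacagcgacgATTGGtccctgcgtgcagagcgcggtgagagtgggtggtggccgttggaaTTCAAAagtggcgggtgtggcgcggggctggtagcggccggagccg
KIF18B, chr17:44947724-44947923, minus strand: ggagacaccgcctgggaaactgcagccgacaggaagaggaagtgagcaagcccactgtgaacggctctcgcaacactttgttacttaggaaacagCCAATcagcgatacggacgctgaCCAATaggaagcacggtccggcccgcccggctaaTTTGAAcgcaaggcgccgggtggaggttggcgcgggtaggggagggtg
KIF20A, chr5:138178962-138179161, plus strand: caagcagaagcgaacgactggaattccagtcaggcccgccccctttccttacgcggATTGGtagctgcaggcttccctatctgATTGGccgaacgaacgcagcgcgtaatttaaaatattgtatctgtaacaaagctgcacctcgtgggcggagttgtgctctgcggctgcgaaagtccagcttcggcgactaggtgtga
KIF5B, chr10:32056376-32056575, minus strand: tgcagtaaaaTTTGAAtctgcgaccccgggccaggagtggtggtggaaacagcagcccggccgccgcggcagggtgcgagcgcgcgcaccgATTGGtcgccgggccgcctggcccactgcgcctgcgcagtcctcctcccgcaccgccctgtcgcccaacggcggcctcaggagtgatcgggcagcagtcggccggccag

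In the window from 250 bases before to 50 after the start, TTTGAA was present for 9 of 12 division kinesins tested, 1 of 11 transport kinesins and 0 of 8 others with a promoter entry. The same letters were found for 18.2% of all 27305 genes in the promoter table, and in 15.2% of its 35116 windows. The variant TTCGAA, found for 1.82% of genes, was present for the division gene KIF22 and for KIF24 of the ciliary and other class. CCAAT was present for 10 of 12 division kinesins, 4 of 11 transport kinesins and 3 of 8 others, against 39.7% of genes. KIF15 had TTTGAA without CCAAT, KIF20A had CCAAT without a TTTGAA or TTCGAA, and KIF2C had none of the 3 motifs. KIF20B had both TTTGAA and CCAAT, with 122 bases between the first letters of the nearest matches. CCAAT began up to 50 bases before a TTTGAA for 7 of the 12 division kinesins, a layout found in 1.42% of all windows, with 9 (KIF23) to 50 bases (KIFC1) between their first letters. By position from the start, KIF11 had TTTGAA at -28, KIF4A at -34, KIF18A at -10 and KIF18B at 3, whereas KIF5B had its match at -140. A match is a run of letters and not a bound site. The motifs and the limit of 50 bases were chosen with the expression results known.

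**Figure D1:**
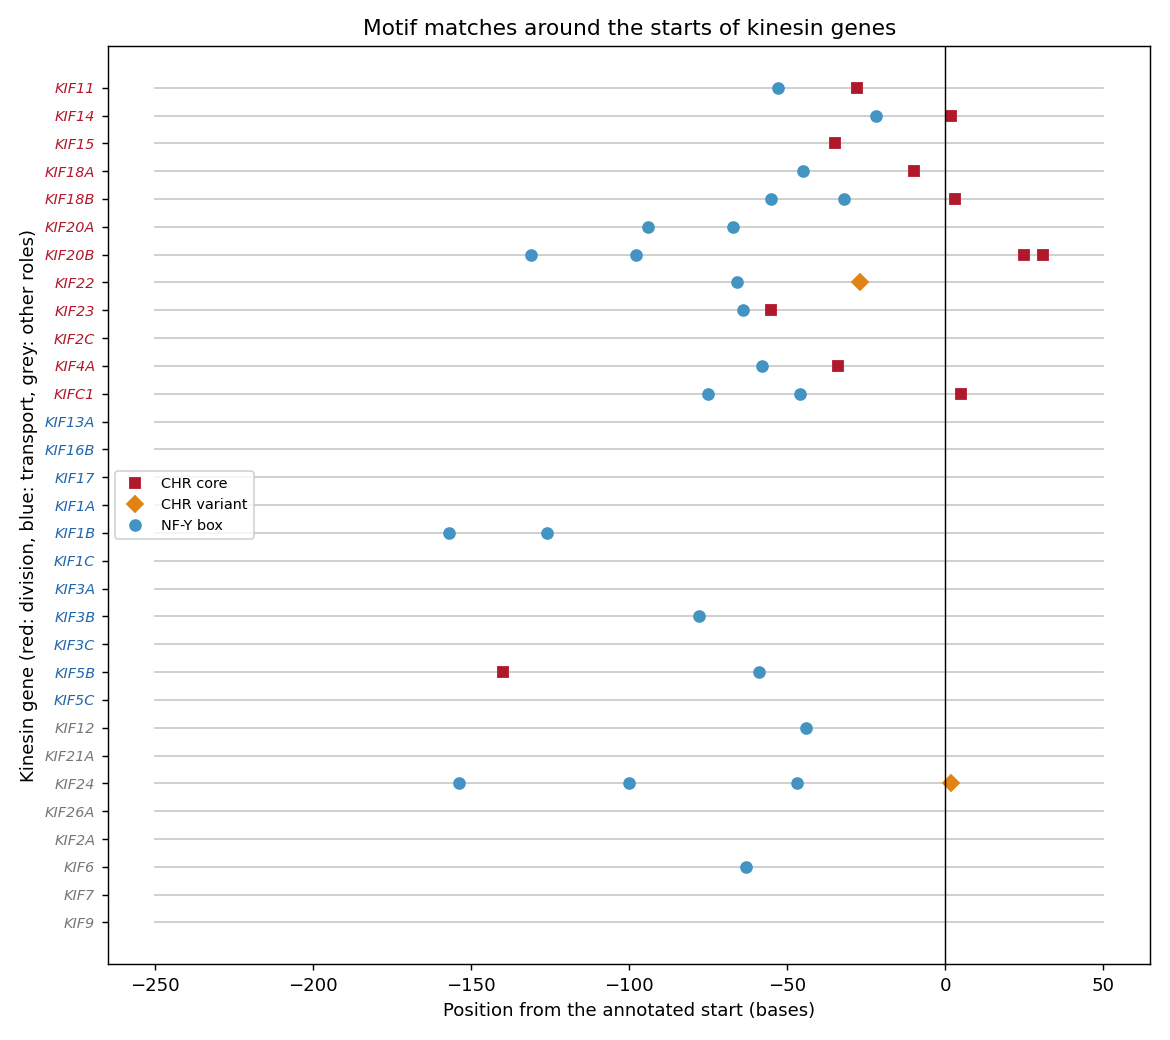
Positions of motif matches from 250 bases before to 50 after the annotated start (x axis, bases; the line at 0 is the start), 1 row per kinesin gene, using the first listed start of each gene. Squares are the CHR core, diamonds its variant and circles the NF-Y box; CHR core matches appear in 9 of 12 division kinesins (red names) and 1 of 11 transport kinesins (blue names).

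Division kinesins rose in the mimic arrays, with 1 exception. Among 12 tested, 11 were higher, 1 was lower and 0 failed to pass (limma, Benjamini-Hochberg adjusted p under 0.05 over all genes), where 30.2% of all genes were called, 17.8% higher and 12.4% lower. Their median difference, mimic minus control on the log2 scale, was 0.91, against -0.02 over all 14266 genes, and 5 of the 12 rose by 2-fold or more, against 2.07% of all genes. The 2 groups of arrays did not overlap for any of the 12, as for 70.6% of all genes. In RNA from whole cultures, a larger share of dividing cells and more transcript per dividing cell cannot be told apart. Without mimic replicate 1 or mimic replicate 2, 0 of all genes passed in limma, while 12 of 12 division kinesins were at an unadjusted p under 0.05, where 29.4% and 29.8% of all genes were, and 11 stayed positive. Without control replicate 1, 7 passed as higher, where 4.15% of all genes did, and without control replicate 2, 10 did, where 5.77% of all genes did. In these fits the lone array of a group is assumed to vary like the other group, which alone gives the spread.

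**Figure D2:**
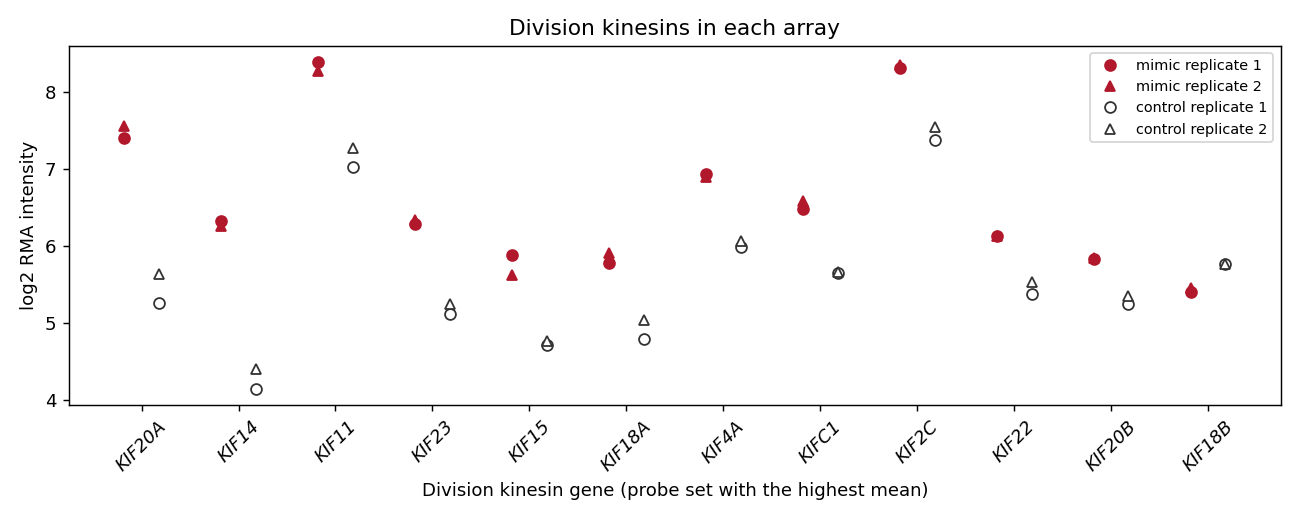
Log2 RMA intensity (y axis) of the 12 division kinesins tested (x axis), with filled red symbols for the 2 mimic arrays and open symbols for the 2 control arrays; circles are replicate 1 and triangles replicate 2. Mimic points lie above control points for 11 genes and below them for KIF18B, and control replicate 1 lies at or below control replicate 2 for every gene.

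Of the kinesins of cytokinesis, KIF20A and KIF14 had the highest differences in the class. KIF20A, which carries the chromosomal passenger complex to the central spindle, was at 7.39 and 7.55 in mimic arrays, against 5.26 and 5.64 in control arrays. Both mimic values stood well above both control values, and the rise of 2.02 ± 0.14 (SE), 4.07-fold, ranked 17 of 14266 genes from the top (adjusted p = 0.00176, limma). KIF14, which localises to the midbody with PRC1 and citron kinase, was at 6.33 and 6.26 in mimic arrays, against 4.15 and 4.40 in control arrays, and ranked 18 with 2.02 ± 0.10 (adjusted p = 0.00110, limma). KIF23, the motor subunit of the centralspindlin complex, was at 6.28 and 6.34 in mimic arrays, against 5.11 and 5.24 in control arrays. It rose 2.19-fold, by 1.13 ± 0.071 (adjusted p = 0.00150, limma), and replicates of each group lay closer together than the groups. KIF20B, another motor of the final stage of division, was at 5.83 and 5.85 in mimic arrays, against 5.24 and 5.35 in control arrays. Its rise of 0.54 ± 0.066 (adjusted p = 0.00652, limma) was the smallest in the class among genes that rose.

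Spindle assembly motors also rose. KIF11, also called Eg5, slides antiparallel microtubules apart to separate the spindle poles, and was at 8.38 and 8.27 in mimic arrays, against 7.02 and 7.27 in control arrays. Its rise was 1.18 ± 0.10, 2.26-fold (adjusted p = 0.00294, limma). KIF15, which can keep a spindle bipolar when KIF11 is inhibited, was at 5.89 and 5.62 in mimic arrays, against 4.71 and 4.77 in control arrays, a rise of 1.01 ± 0.10, 2.02-fold. KIFC1, a minus-end motor that focuses poles and clusters extra centrosomes, was at 6.47 and 6.59 in mimic arrays, against 5.65 and 5.67 in control arrays, and rose by 0.87 ± 0.066, 1.83-fold. All 3 had mimic arrays above control arrays, and the adjusted p of KIF15 was 0.00417 and that of KIFC1 0.00208 (limma). The KIF15 call was lost on leaving out any one array (adjusted p up to 0.0651).

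Of the division calls, those of KIFC1, KIF18A and KIF20B were also lost without control replicate 1, at differences of 0.86, 0.81 and 0.48.

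Motors that act on chromosomes and microtubule ends also rose. KIF18A, which damps chromosome oscillation at kinetochore microtubules, was at 5.78 and 5.90 in mimic arrays, against 4.80 and 5.03 in control arrays, and rose by 0.93 ± 0.10, 1.90-fold (adjusted p = 0.00491, limma). KIF4A, a chromokinesin that limits the length of midzone microtubules with PRC1, was at 6.93 and 6.90 in mimic arrays, against 5.98 and 6.06 in control arrays, and rose by 0.89 ± 0.061 (adjusted p = 0.00174, limma). KIF4B is a close copy of KIF4A, and a probe set assigned to both, left out of the tests, gave a difference of 0.98. The second probe set of KIF4A alone gave -0.02 without a call, and with the mean of its probe sets KIF4A rose by 0.44 (adjusted p = 0.0278, limma). KIF2C, the depolymerase that corrects wrong kinetochore attachments, was at 8.31 and 8.34 in mimic arrays, against 7.37 and 7.54 in control arrays, and rose by 0.87 ± 0.077, 1.83-fold (adjusted p = 0.00294, limma). KIF22, a chromokinesin that pushes chromosome arms towards the spindle equator, was at 6.12 and 6.13 in mimic arrays, against 5.37 and 5.53 in control arrays (0.68 ± 0.073, adjusted p = 0.00487, limma). That value comes from 1 of 3 KIF22 probe sets, and the other two gave 0.25 and -0.28 without a call, so its direction depended on the probe set.

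KIF18B went the other way. This motor limits the length of astral microtubules together with KIF2C, and its promoter holds both motifs. It was at 5.40 and 5.46 in mimic arrays, against 5.76 and 5.77 in control arrays, and fell by 0.33 ± 0.058 (adjusted p = 0.0160, limma). All 4 of its probe sets were lower, between -0.33 and -0.10, although 2 of them held identical values in every array and count as 1 measurement. The KIF18B call was lost on leaving out any one array, with the difference below 0 in each case. KIF2B, the remaining division kinesin with a probe set, lay below the level filter at 1.99 and 1.81 in mimic arrays, against 1.84 and 1.96 in control arrays, which overlapped.

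Control arrays also differed from each other in these genes. Control replicate 1 was below control replicate 2 for all 12 division kinesins, by a median of 0.14, whereas it was above control replicate 2 for 6042 of all 14266 genes. Mimic replicate 1 was above mimic replicate 2 for 4 of the 12. The gap between control arrays was smaller than the gap between groups for each of the 12, being widest for KIF20A at 5.26 and 5.64. What set the control arrays apart was not tested.

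Transport kinesins showed small differences, most of them below 0. The difference was positive for 3 of 15, where it was for 6687 of all 14266 genes. A rise was called for 1 of 15 and a fall for 3, or 6.67% and 20%, and 11 were not called, where 17.8% of all genes were called higher and 12.4% lower. Their median difference was -0.12, none changed by 2-fold or more, and the groups did not overlap for 9 of 15, against 70.6% of all genes. The class was described next to the division class, without a test of its own.

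**Figure D3:**
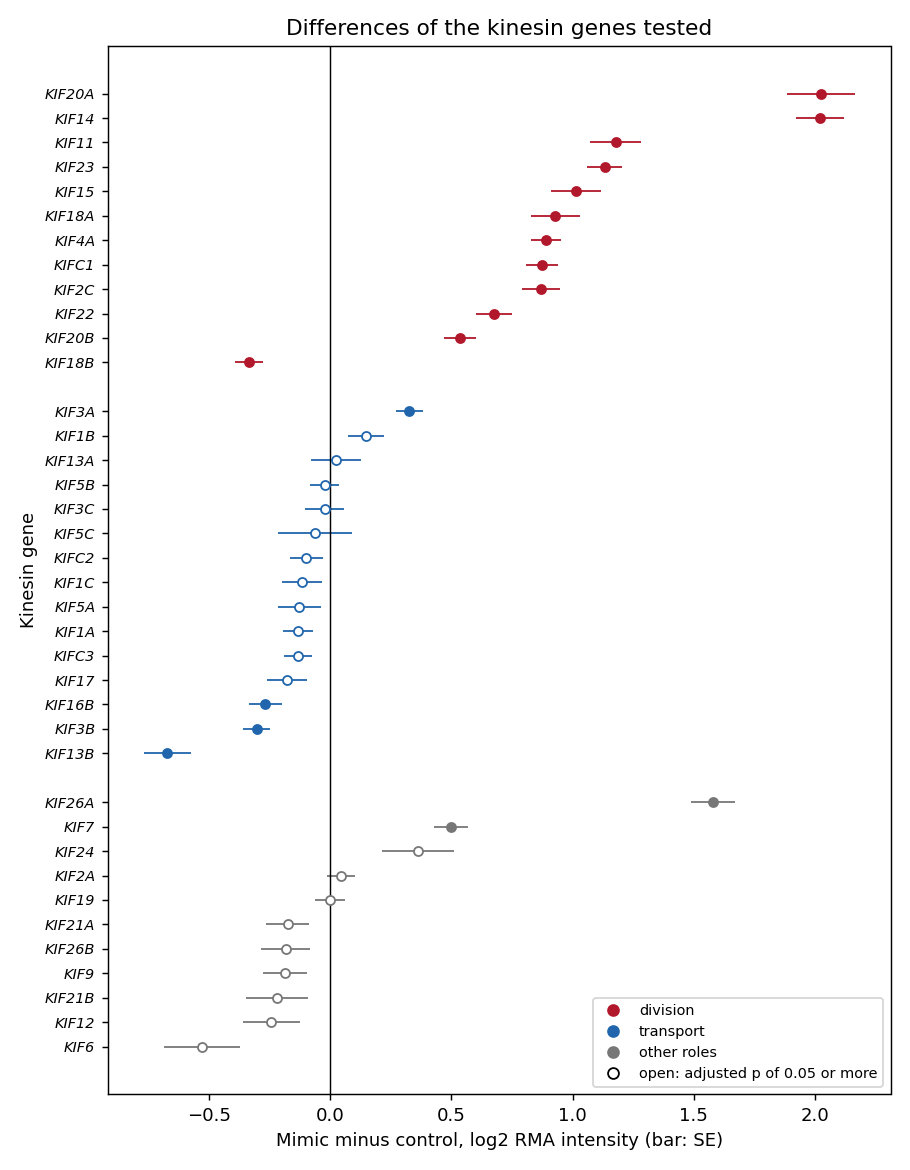
Mimic minus control difference in log2 RMA intensity (x axis, bars are limma's SE) for the 38 kinesin genes tested (rows), coloured by class and filled where the adjusted p was under 0.05. Red points of the division class lie between -0.33 and 2.02 and blue points of the transport class between -0.67 and 0.33.

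KIF13B, which carries vesicles and binds the polarity protein DLG1, fell most among them. It was at 5.24 and 5.20 in mimic arrays, against 6.02 and 5.77 in control arrays, 1.59-fold lower (-0.67 ± 0.098, adjusted p = 0.0102, limma). Both control arrays lay above both mimic arrays, and its dimmer probe set gave -0.16 without a call. The KIF13B call was lost without mimic replicate 1, without mimic replicate 2 and without control replicate 1, with differences of -0.69, -0.65 and -0.55. KIF16B, a motor of early endosomes, was at 6.55 and 6.47 in mimic arrays, against 6.83 and 6.73 in control arrays, and fell by 0.27 ± 0.068 (adjusted p = 0.0413, limma). This call was lost with no level filter, with the mean of its probe sets, without shared-sequence probe sets, with the replicate number as a block and on leaving out any one array.

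The kinesin-2 motor of intraflagellar transport, a trimer of KIF3A, KIF3B and the adaptor KIFAP3, had subunits that moved in different directions. KIF3A was at 6.57 and 6.60 in mimic arrays, against 6.26 and 6.25 in control arrays, and rose by 0.33 ± 0.056 (adjusted p = 0.0153, limma). All 3 of its probe sets were called higher in the fit over probe sets, where 8.18% of all probe sets were, with differences from 0.33 to 0.76. KIF3B was at 8.12 and 8.13 in mimic arrays, against 8.43 in both control arrays, and fell by 0.30 ± 0.055 (adjusted p = 0.0180, limma). Its 4 probe sets were all lower, from -0.30 to -0.17, and none was called in the fit over probe sets. KIFAP3, no member of the family by name, was at 6.23 and 5.96 in mimic arrays, against 6.59 and 6.66 in control arrays, and fell by 0.53 ± 0.10 (adjusted p = 0.0213, limma). The log2 ratio of KIF3A to KIF3B was higher by 0.63 in mimic arrays, and an exact two-sided permutation test of 2 against 2 arrays gave p = 0.333, the smallest it can give. The calls of KIF3A and KIF3B were lost on leaving out any one array. KIF3C, which can replace KIF3B in the pair, was at 6.47 and 6.66 in mimic arrays, against 6.59 in both control arrays, without a call.

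**Figure D4:**
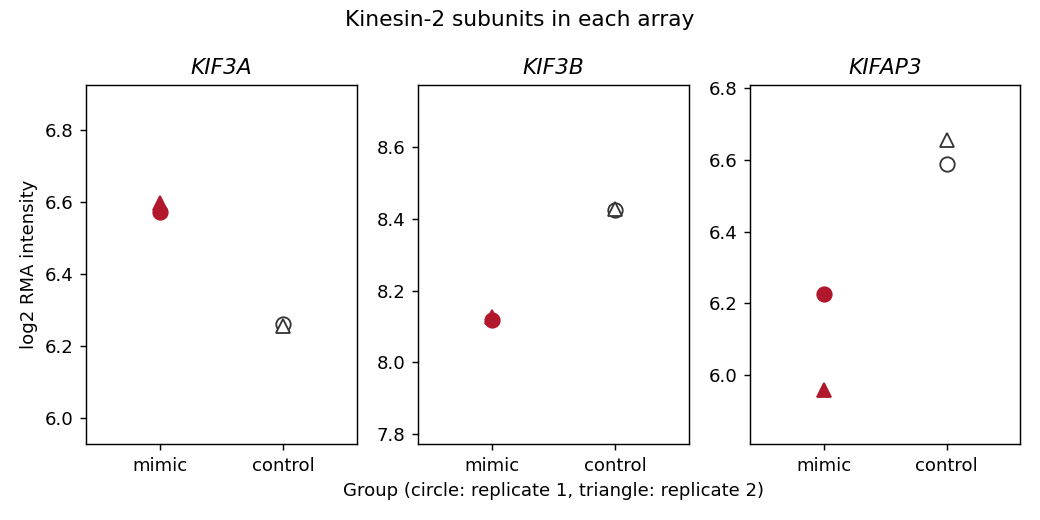
Log2 RMA intensity (y axis, each panel spans 1 unit at its own level) of KIF3A, KIF3B and KIFAP3 in mimic arrays (filled, left) and control arrays (open, right), with circles for replicate 1 and triangles for replicate 2. KIF3A lies higher in mimic arrays, KIF3B and KIFAP3 lower.

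The other transport motors gave no call. KIF5B, the widely expressed heavy chain of conventional kinesin, was at 10.25 and 10.18 in mimic arrays, against 10.24 and 10.22 in control arrays. Its groups overlapped and its difference was -0.02 ± 0.060. Its promoter holds TTTGAA at -140 and CCAAT at -59, and a link of motif order to expression was not tested. KIFC3, a minus-end motor at epithelial adherens junctions, was at 8.54 and 8.50 in mimic arrays, against 8.63 and 8.68 in control arrays (-0.13 ± 0.059). KIF1C, a vesicle motor, was at 8.09 and 8.23 in mimic arrays, against 8.21 and 8.34 in control arrays, which overlapped (-0.12 ± 0.082). Differences of the remaining 8, KIF1A, KIF1B, KIF3C, KIF5A, KIF5C, KIF13A, KIF17 and KIFC2, lay between -0.18 (KIF17) and 0.15 (KIF1B).

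In the class of ciliary, microtubule-end and other kinesins, 2 of 11 were called higher, none lower, and 9 were not called. Those 2 are 18.2% of the class, near the 17.8% of all genes called higher, and 12.4% of all genes were called lower. The median difference of the class was -0.17. This median was 0.0079 with the mean of a gene's probe sets and lay between -0.106 and -0.0656 on leaving out each array in turn. KIF26A, an atypical kinesin that lacks motor activity and restrains growth signalling in enteric neurons of the mouse, was at 7.46 and 7.48 in mimic arrays, against 5.78 and 6.01 in control arrays. It rose 2.99-fold, by 1.58 ± 0.092 (adjusted p = 0.00128, limma), on a single probe set, and had no CHR or CCAAT match in its window. Its call was lost without mimic replicate 1 or mimic replicate 2 (highest adjusted p = 0.0556, limma). Among kinesins, the differences of KIF20A and KIF14 alone exceeded it. KIF7, the ciliary kinesin of Hedgehog signalling, was at 4.76 and 4.87 in mimic arrays, against 4.28 and 4.36 in control arrays, and rose by 0.50 ± 0.070 (adjusted p = 0.00907, limma). Both genes had mimic arrays above control arrays, and the KIF7 call was lost on leaving out any one array.

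KIF21A, which restrains microtubule growth at the cell cortex, was at 8.24 in both mimic arrays, against 8.53 and 8.31 in control arrays (-0.17 ± 0.089). KIF9, a kinesin of motile cilia, was at 8.12 in both mimic arrays, against 8.19 and 8.42 in control arrays (-0.19 ± 0.091). Neither gene was called, and the control arrays differed from each other by more than the mimic arrays did. KIF2A, a depolymerase of spindle poles and of neurons, was at 6.50 and 6.53 in mimic arrays, against 6.49 and 6.45 in control arrays (0.05 ± 0.058). KIF6 had -0.53 ± 0.16, at 2.99 and 2.995 in mimic arrays, against 3.29 and 3.76 in control arrays, and did not pass (adjusted p = 0.0613, limma). The other five without a call lay between -0.24 (KIF12) and 0.36 (KIF24). Of the 2 dim genes of this class, KIF27 was called lower in the fit over probe sets (-0.56 ± 0.088, adjusted p = 0.0249, limma) at log2 levels of 1.80 and 1.77 in mimic arrays, against 2.25 and 2.43 in control arrays, and KIF25 was not called.

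Members of the same kinesin family, which share a motor domain type, are set side by side here as a description, for part of the families. In kinesin-6 every member rose, KIF20A by 2.02, KIF23 by 1.13 and KIF20B by 0.54. In kinesin-1 none was called, with KIF5B at -0.02, KIF5C at -0.06 and KIF5A at -0.13. Other families held members with unlike differences. In the kinesin-13 family KIF2C rose by 0.87, KIF24 gave 0.36 and KIF2A gave 0.05, in kinesin-14 KIFC1 rose by 0.87 and KIFC3 gave -0.13, and in kinesin-12 KIF15 rose by 1.01 and KIF12 gave -0.24. In kinesin-4 KIF4A rose by 0.89 and KIF7 by 0.50, while KIF21A gave -0.17 and KIF21B -0.22, and in kinesin-3 KIF14 rose by 2.02 while its 6 transport relatives lay between -0.67 and 0.15. The kinesin-8 genes KIF18A and KIF18B, both of the division class, were 0.93 and -0.33, and the kinesin-11 genes KIF26A and KIF26B, both of the class of other roles, were 1.58 and -0.18. Taken as within-array log2 ratios, these pairs changed by 0.82 (KIF2C over KIF2A), 1.01 (KIFC1 over KIFC3), 1.26 (KIF15 over KIF12), 1.06 (KIF4A over KIF21A) and 1.26 (KIF18A over KIF18B). With the KIF3A and KIF3B pair, 6 pairs were compared, all of members with unlike differences. Each had p = 0.333 in the exact two-sided permutation test before and after adjustment, the smallest that 2 against 2 arrays allow.

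Over all 101 kinesin probe sets without a level filter, 20 were called higher and 5 lower (limma, adjusted over 44988 probe sets), where 8.18% of all probe sets were called higher and 3.59% lower. With the replicate number as a block 8 were called higher and 0 lower, and on leaving out any one array 0 were called in either direction. The shares of all probe sets called in these alternative fits were not computed. Of the 20 called higher in the main fit, 15 belonged to the 23 division probe sets, 3 to KIF3A, 1 to KIF26A and 1 to KIF7. The 5 called lower were 2 of KIF18B, with identical values, and 1 each of KIF1A, KIF13B and KIF27. The called KIF1A probe set gave -0.52 and its brightest one -0.13. Of 27 kinesin genes with several probe sets, 16 had all of them on 1 side of 0. The same share over all genes was not computed, so this count is a description only. Both probe sets were called higher for KIF11 (1.18 and 1.11), KIF14 (2.02 and 2.12), KIF2C (0.87 and 0.75) and KIF23 (1.13 and 0.84), whereas the dimmer KIF4A probe set gave -0.02. KIF21B had -0.22 in its brighter and 0.69 in its dimmer probe set, neither called. In the division class, KIF15, KIF18A, KIF20A, KIF20B and KIFC1 had a single probe set each among those tested.

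**Figure D5:**
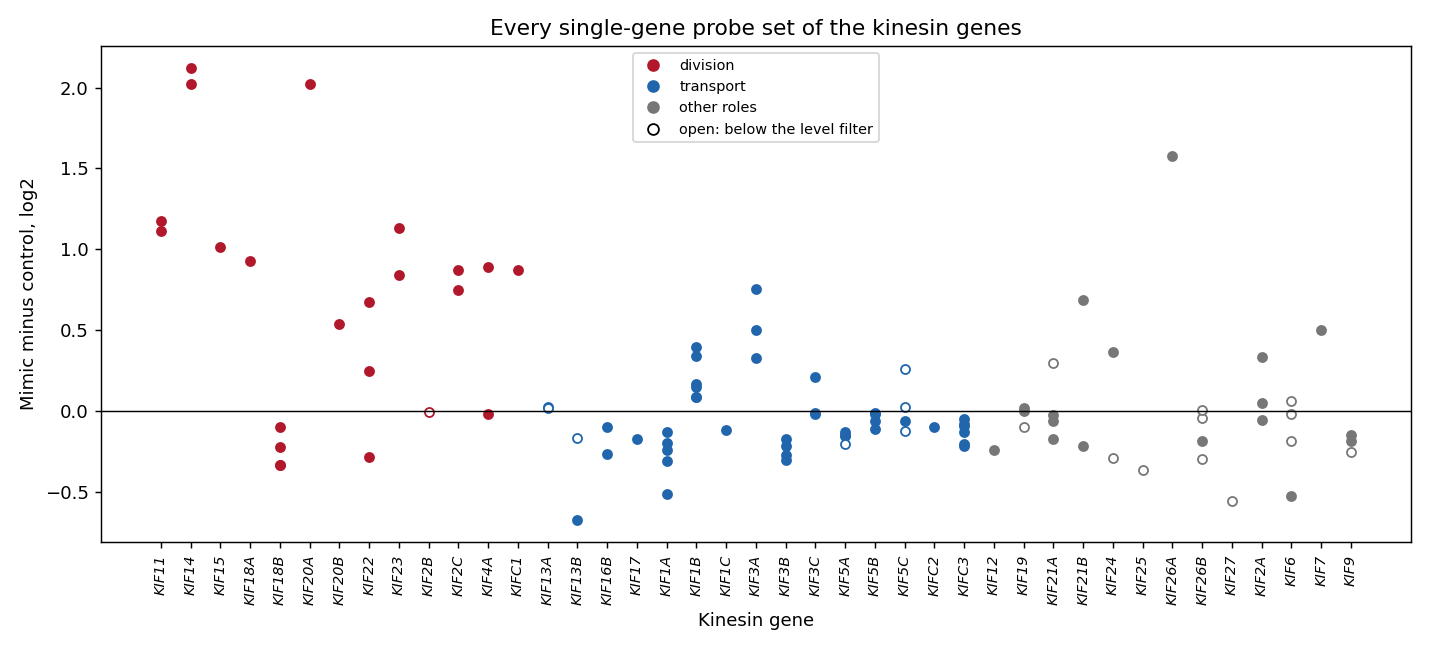
Mimic minus control difference in log2 RMA intensity (y axis) of every single-gene probe set, 1 point each, by kinesin gene (x axis), coloured by class and open where the mean lay below the level filter of 2.86. Most division genes have all their points above 0, KIF18B has all of them below 0, and KIF22 and KIF4A have points on both sides.

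Genes that work with division kinesins, listed by their role, gave 13 of 16 higher, 2 lower and 1 without a call, with a median of 0.77, beside 17.8% of all genes called higher and 12.4% lower. CENPE, the kinesin-7 of kinetochores whose symbol falls outside the rule, was at 6.59 and 6.84 in mimic arrays, against 5.40 and 5.58 in control arrays, and rose by 1.22 ± 0.11 (adjusted p = 0.00322, limma). CDCA8, a subunit of the chromosomal passenger complex that KIF20A carries, rose by 1.40 ± 0.16, HMMR, a spindle pole protein, by 1.38 ± 0.090, and PRC1, the midzone crosslinker that binds KIF4A and KIF14, by 1.28 ± 0.081. INCENP, the scaffold of the chromosomal passenger complex, fell by 0.35 ± 0.059, and MAPRE1, which encodes the plus-end protein EB1, fell by 0.33 ± 0.071. NUMA1, a spindle pole protein, gave -0.05 without a call.

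Among 16 tested partners of transport kinesins, 3 were called higher, 3 lower and 10 were not called (median -0.06), or 18.8% in each direction, near the 17.8% of all genes called higher and 12.4% called lower. Among the light chain genes of conventional kinesin, KLC3 rose by 0.80 ± 0.085 and KLC1 by 0.58 ± 0.060, KLC4 fell by 0.30 ± 0.080, and KLC2 gave -0.06. CLSTN1, a cargo receptor that binds light chains, rose by 0.44 ± 0.056. KIFAP3 and TRAK2, which links kinesin to mitochondria (-0.26 ± 0.069), were the other genes that fell.

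Markers of the labelled cell type were bright. Of 7 squamous epithelium markers, 5 were measured (KRT5, KRT14, DSG3, SFN and CDH1). Their summed intensities were 9900 and 10080 in mimic arrays and 7913 and 7543 in control arrays. KRT14 (1.15) and KRT5 (0.48) were called higher, whereas CDH1 (0.04), DSG3 (-0.07) and SFN (-0.14) were not called. Sums were 51.3 and 58.6 in mimic arrays and 61.0 and 63.2 in control arrays for 5 fibroblast markers. For 4 leukocyte markers they were 74.1 and 75.7 in mimic arrays and 69.8 and 64.2 in control arrays, and for 3 endothelial markers 59.7 and 58.3 in mimic arrays and 64.5 and 65.4 in control arrays. Of the leukocyte markers, CD14 was called higher (0.53, adjusted p = 0.0327, limma) and CD79A lower (-0.27, adjusted p = 0.0378, limma), and the part of other cell types in the results was not tested. DCN, LUM and PTPRC were below the level filter. Across 49293 probe sets, the log2 values of the mimic arrays correlated at 0.998, those of the control arrays at 0.997, and those of a mimic and a control array at 0.991.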

How the data were processed

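Affymetrix arrays of SCC-15 cells were used, 2 given the mimic and 2 the control oligonucleotide. The deposited values are 1 intensity per probe set and array, on a linear scale from 1.62 to 11401, and the authors used RMA, per the submitters' processing notes (background correction, quantile normalization and summary per probe set). The program that ran it is not given in the sources used here. RMA compresses differences of dim probe sets.

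Log2 was taken first. Of 49293 probe sets, 44988 had 1 gene symbol in the platform annotation, 1832 had several and 2473 none. Of the first, 44961 matched the RefSeq table of GRCh38.p14 by gene identifier and took its symbol. Those of several genes or no gene stayed out. Single-gene probe sets whose mean log2 value fell in the lowest 30% (below 2.86, an intensity of 7.27) were dropped, and the probe set with the highest mean stood for a gene. Mimic and control were compared over all 14266 genes with lmFit and eBayes of limma 3.58.1 in R 4.3.3, and Benjamini-Hochberg adjusted p-values under 0.05 were called. A second fit took all 44988 single-gene probe sets with no filter. The SE of a difference is the moderated one of limma, on 4.98 degrees of freedom. The procedure was also run on simulated data, with independent genes and far fewer changed genes than were called here. That run therefore does not measure error rates in these data.

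Values per array are given for each division kinesin tested, and in the other classes for each gene that passed and the 3 with the highest mean that did not. KIF3C, KIF6, KIF21B, KIF24, KIF26B, KIF27 and KIF2B were added after their values were seen, as were the individual probe sets quoted. Of the partner genes, up to 3 each way with the largest difference and CENPE were named, and NUMA1 and KLC2 were added later. The members and lists were chosen with earlier results of these data known. Promoters came from RefSeq for 12 of 12 division, 11 of 15 transport and 8 of 11 other kinesins tested. Alternatives covered the filter, the probe set rule, scaling, the log offset, limma's prior, the replicate block, each array left out and the place of KIF2A.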

Additional observations from a re-analysis of the deposited data

How the results depend on the processing

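The level filter, probe set rule, scaling, log2 offset, limma's prior, replicate block and place of KIF2A were each changed. Between 9 and 11 of the 11 to 13 division kinesins tested were then called higher, and 1 lower. Over all genes, 1949 (replicate block) to 3136 (trend and robust eBayes) of 14266 were called higher. Those called lower numbered 986 (replicate block) to 2627 (quantile normalization). The fit without _s_at and _x_at probe sets gave 9 of 11. KIF15 was not in it, since its only probe set is of the _s_at kind. The median difference of the division class stayed positive. It was 0.73 with log2(intensity + 16). On leaving out each array in turn, 0 to 10 division kinesins were called higher and 0 lower, with medians of 0.86 to 0.999. The transport class then had medians of -0.158 to -0.0545, and the class of other roles had medians of -0.106 to -0.0656. The median of the transport class was -0.12 with the lowest 50% left out, -0.11 without _s_at and _x_at probe sets, -0.13 after quantile normalization and -0.0653 with log2(intensity + 16). That of the class of other roles was -0.064 without _s_at and _x_at probe sets, -0.26 after quantile normalization and 0.0079 with the mean of a gene's probe sets. With no filter, and with trend and robust eBayes, 1 gene of that class was called lower, where 1370 of 18132 and 2097 of 14266 genes were. KIF22 was at -0.28 without _s_at and _x_at probe sets, since its called probe set is of the _s_at kind.

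Replicate numbers were not shown to pair the arrays, and the deviations of same-numbered arrays correlated at -0.004 across probe sets. With the number as a block, 11 division kinesins were called higher and 1 lower, 1 transport kinesin higher and 2 lower, and over all genes 1949 higher and 986 lower. In the fit over probe sets the replicate block left 8 kinesin probe sets higher and 0 lower, and each array left out gave 0 and 0 in limma. Shares over all probe sets were not computed for these fits over probe sets. Quantile normalization moved the split over all genes to 2057 higher and 2627 lower, against 2545 and 1765 as deposited. Signal over background limits the genes near the filter, such as KIF6 and KIF17.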
